A study of Mus musculus with 16 samples.

Results

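The striated muscle myosins and actins were followed as a set of 10 genes: the myosin heavy chains Myh1, Myh2, Myh3, Myh4, Myh7, and Myh8, the sarcomeric actins Acta1 and Actc1, the light chain Myl1, and the muscle creatine kinase Ckm. They were chosen by symbol, through the Ensembl identifiers of the tables. No measured value entered this rule, but earlier results of these data were known when the set was chosen. All 10 were among the 47729 genes of the Achilles tendon table. In the single-cell table, 8 of the 10 were among 29629 genes, and Myh1 and Myh2 were not analysed there. The Achilles tendon libraries were from 2-week-old mice, 2 wild type (Scx-Wt) and 2 homozygous for loss of scleraxis, the tendon transcription factor (Scx-homoKO), taken from littermates. Each held between 11188270 and 12398560 counts of poly(A) RNA. The single cells were derived from 1 clone of induced pluripotent stem cells carrying the ScxGFP transgene, in which regulatory sequence of Scx drives a green fluorescent protein. They were sorted as mesodermal cells before treatment (T0) and after 3, 6, or 9 days with 10 ng/ml TGF-β2 (T3, T6, T9), onto 3 plates of 384 wells per time point. Of 4608 wells, the 4594 with at least 200 detected genes were used, and a plate held between 1921125 and 4657093 unique molecular identifiers (UMIs, one per captured mRNA molecule). The 384 well barcodes were the same in every plate, so that they name wells and not cells.

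In skeletal muscle, force comes from myosin heads that pull on actin filaments, and the heavy chain isoform largely sets the speed of a fibre. Myh7 is the heavy chain of slow fibres, Myh2, Myh1, and Myh4 are those of fast fibres from the slower to the fastest, and Myh3 and Myh8 are the embryonic and neonatal chains that are replaced as muscle matures. Acta1 is the skeletal and Actc1 the cardiac actin, which is also made by immature skeletal muscle, while Myl1 encodes the fast alkali light chains and Ckm the enzyme that regenerates ATP from phosphocreatine. Tendon cells are not known as makers of these proteins, and the Achilles tendon is joined to its muscles at the myotendinous junction.

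Genes of the fast and developmental myosins lie together on chromosome 11. In GRCm38, GENCODE vM21 places Myh3 (ENSMUSG00000020908) at 67078300 to 67102291, Myh2 (ENSMUSG00000033196) at 67171027 to 67197517, Myh1 (ENSMUSG00000056328) at 67200052 to 67224575, Myh4 (ENSMUSG00000057003) at 67238029 to 67260446, and Myh8 (ENSMUSG00000055775) at 67277124 to 67308634, all on the plus strand. Myh7 (ENSMUSG00000053093) lies apart, on the minus strand of chromosome 14 at 54970684 to 54994626. The 250 bases before the RefSeq start (build GRCm38.p6) of 4 heavy chain genes are shown because Myh7 and Myh8 were the members that moved in the tendon, in opposite directions, while Myh1 and Myh4 are the neighbours of Myh8 with the highest levels. Those of both actins are shown as well. Actc1 had the most single-cell UMIs of the members, with Myl1 next and Acta1 after it. Capitals mark letters that match, on either strand, an E-box (CANNTG, the site of MyoD family factors), a CArG box (the site of serum response factor), a MEF2 site, an MCAT element, or a TATA box. The letters searched were CATTCC for the MCAT element. For the TATA box they were TATAAA.
Myh7, chr14:54994627-54994876, minus strand: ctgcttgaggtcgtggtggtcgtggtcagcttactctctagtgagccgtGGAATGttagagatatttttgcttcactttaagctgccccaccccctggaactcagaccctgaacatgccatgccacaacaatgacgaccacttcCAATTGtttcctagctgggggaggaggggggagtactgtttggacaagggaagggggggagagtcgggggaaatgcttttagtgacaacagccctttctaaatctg
Myh8, chr11:67276874-67277123, plus strand: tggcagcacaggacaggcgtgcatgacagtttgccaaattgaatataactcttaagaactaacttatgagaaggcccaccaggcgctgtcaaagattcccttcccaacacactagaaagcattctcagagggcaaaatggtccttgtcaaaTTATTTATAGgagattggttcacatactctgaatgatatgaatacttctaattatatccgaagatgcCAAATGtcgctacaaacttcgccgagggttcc
Myh1, chr11:67199852-67200101, plus strand: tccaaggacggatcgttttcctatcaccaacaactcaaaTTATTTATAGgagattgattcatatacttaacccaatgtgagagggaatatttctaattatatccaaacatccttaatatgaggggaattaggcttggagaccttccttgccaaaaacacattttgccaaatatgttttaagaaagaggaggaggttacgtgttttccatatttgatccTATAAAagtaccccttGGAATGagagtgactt
Myh4, chr11:67237562-67237811, plus strand: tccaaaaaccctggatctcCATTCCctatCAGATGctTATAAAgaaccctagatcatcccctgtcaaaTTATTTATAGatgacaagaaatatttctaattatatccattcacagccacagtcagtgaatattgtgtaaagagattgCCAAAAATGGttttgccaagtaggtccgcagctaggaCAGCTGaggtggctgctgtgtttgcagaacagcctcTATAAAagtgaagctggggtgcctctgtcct
Acta1, chr8:123894776-123895025, minus strand: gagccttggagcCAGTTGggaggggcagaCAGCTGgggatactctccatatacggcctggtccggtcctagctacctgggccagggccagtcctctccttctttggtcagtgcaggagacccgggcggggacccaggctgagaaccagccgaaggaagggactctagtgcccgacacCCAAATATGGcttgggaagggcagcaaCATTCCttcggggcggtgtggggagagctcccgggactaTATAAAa
Actc1, chr2:114052876-114053125, minus strand: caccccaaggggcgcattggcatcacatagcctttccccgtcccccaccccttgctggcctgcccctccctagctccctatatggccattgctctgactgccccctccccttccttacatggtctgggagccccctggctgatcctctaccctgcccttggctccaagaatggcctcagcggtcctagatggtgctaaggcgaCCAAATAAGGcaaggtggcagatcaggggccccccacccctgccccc

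Myh1, Myh4, and Myh8 shared the same 10 letters, TTATTTATAG, which match the MEF2 site and, within it, the TATA box read on the other strand. The MEF2 pattern stood in 2.92% of 32851 mouse promoter windows of this length and in 3 of the 10 members. A CArG box was found before Acta1, Actc1, and Myh4, and in 1.47% of all windows. E-boxes stood before 7 of the 10 members, against 66.2% of all windows, MCAT elements before 5 against 12.6%, and TATA boxes before 6 against 12.4%. Myh7 has 2 RefSeq starts, and only the window of the first was shown and counted. The window of its other start held 2 E-boxes and no MCAT element. These matches are letters in a window and not measured binding.

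The targeted gene was measured first. Scx stood at 103 and 81.3 CPM (the counts of a gene per 1000000 counts of its library) in the Scx-Wt libraries and at 23.1 and 25.1 CPM in the Scx-homoKO libraries. It was lower in Scx-homoKO by the quasi-likelihood test of edgeR (log2 fold change -1.88, SE 0.17, adjusted p = 0.000429), and reads assigned to it remained. Tnmd, a marker of mature tenocytes, was at 1460.1, 1257, 268, and 264 CPM in Scx-Wt replicates 1 and 2 and Scx-homoKO replicates 1 and 2. Together, the members and the 72 other genes of 7 striated muscle lists took 8.22% and 12.5% of the counts in Scx-Wt and 15.6% and 16.3% in Scx-homoKO. Striated muscle RNA was thus a part of all 4 tendon libraries, and in such bulk samples fewer muscle fibres and less RNA per fibre cannot be told apart.

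Between Scx-homoKO and Scx-Wt Achilles tendon, the slow heavy chain fell and the neonatal heavy chain rose. Myh7 was 60.3-fold lower in Scx-homoKO, and Myh8 was 2.36-fold higher. The other 8 members did not pass the test. Among the 10 members, 1 was called higher and 1 lower at an adjusted p below 0.05, beside 1.77% of all 14602 genes tested called higher and 2.07% called lower. The median log2 fold change of the members was 0.62, against -0.00 for all genes tested.

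Myh7, the slow heavy chain, was at 2309.6 and 939 CPM in Scx-Wt and at 45.9 and 7.98 CPM in Scx-homoKO, where 569 and 94 reads stood behind the values. The groups did not overlap, although replicates differed within each. The mean was 1624 ± 969 CPM (SD, n = 2) in Scx-Wt and 26.9 ± 26.8 CPM in Scx-homoKO, and edgeR gave a log2 fold change of -5.86 (SE 0.75, adjusted p = 0.00271). With a library left out, the log2 fold change lay between -5.11 (without Scx-homoKO replicate 2) and -7.57 (without Scx-homoKO replicate 1). It stayed called lower under every alternative of scaling, filter, tool, and left-out library that was run. Reads of Myh6, the neighbouring cardiac heavy chain with near-identical coding sequence, were at 8.85, 7.51, 1.45, and 0.934 CPM, and reads shared between the pair may have been split by the counting.

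Myh8, the neonatal heavy chain, was at 1416 and 1334 CPM in Scx-Wt and at 3218 and 3269.9 CPM in Scx-homoKO. Replicates lay close together in both groups and the groups did not overlap. The log2 fold change was 1.28 (SE 0.22, adjusted p = 0.0117 by edgeR). When the libraries were scaled to the 72 other muscle genes in place of all genes, it was 0.61 (edgeR adjusted p = 0.269), so that the call was lost. These 72 are the genes of the 7 striated muscle lists without the members. A gene of those lists was therefore scaled in part to itself, and a rise shared by the lists was reduced. Under that scaling the median of all genes moved to -0.68, and Myh7 stood at -6.63 (edgeR adjusted p = 3.12e-37). The main edgeR fit of the same libraries gave Myh7 an adjusted p of 0.00271. How the scaled fit estimated the spread between replicates was not examined, so its smaller p was not taken as stronger evidence.

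Myh3, the embryonic heavy chain, was at 787 and 393 CPM in Scx-Wt and at 1016 and 644 CPM in Scx-homoKO. The groups overlapped, and the log2 fold change was 0.55 (SE 0.31, edgeR adjusted p = 0.408). The developmental chains thus differed in their calls, but the difference between them was not tested.

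The fast heavy chains showed higher, lower, and overlapping values. Myh1, the intermediate fast chain, was at 2451 and 5543 CPM in Scx-Wt and at 10413 and 13247 CPM in Scx-homoKO. Its groups did not overlap, and its log2 fold change of 1.59 (SE 0.40) had an edgeR adjusted p of 0.0635. It was 1.05 when libraries were scaled to muscle genes (edgeR adjusted p = 0.0132) and 1.59 without a filter on low counts (edgeR adjusted p = 3.19e-09). Both settings called Myh1, while DESeq2 did not (adjusted p = 0.162). The p without a filter was far below the 0.0635 of the main edgeR fit at the same fold change. How the fit without a filter estimated the spread between replicates was not examined, so its p was not taken as stronger evidence. Without Scx-Wt replicate 1 the log2 fold change was 1.09, and without Scx-Wt replicate 2 it was 2.37. Both were called by edgeR, but with 1 Scx-Wt library left the spread came from the Scx-homoKO pair alone, and the lone library was assumed to vary like that pair.

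Myh4, the fastest chain, was at 2001 and 10324 CPM in Scx-Wt and at 8978 and 10420.1 CPM in Scx-homoKO. A single library, Scx-Wt replicate 1, stood apart from the other 3. The log2 fold change was 0.67 (SE 0.60, edgeR adjusted p = 0.628), and it was -0.095 without that library and 2.38 without Scx-Wt replicate 2. Myh2, the slower of the fast chains, was at 3585 and 2561 CPM in Scx-Wt and at 2287 and 2344 CPM in Scx-homoKO. Its groups did not overlap, with a log2 fold change of -0.35 (SE 0.23, edgeR adjusted p = 0.489) that became -1.08 (edgeR adjusted p = 0.0387) when libraries were scaled to muscle genes. Overlapping genes on the opposite strand share exonic bases with Myh1 (515 bases), Myh2 (237), Myh7 (484 with Mhrt), and Ckm (451), and the heavy chains resemble each other in sequence, so that reads may be assigned in part to the wrong member.

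**Figure D1:**
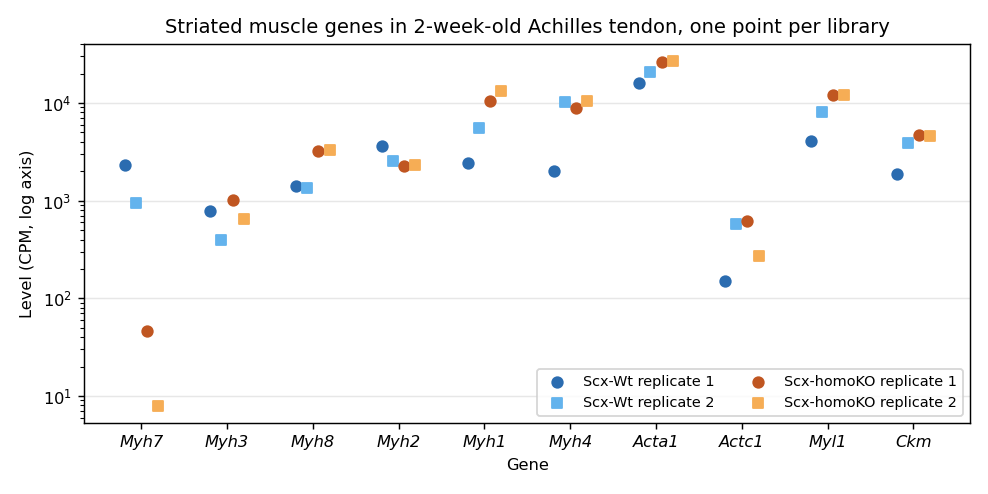
Level in CPM (log axis) of each of the 10 members in the 4 Achilles tendon libraries, with circles for replicate 1 and squares for replicate 2 of Scx-Wt (blue) and Scx-homoKO (orange). Myh7 lies at 2309.6 and 939 CPM in Scx-Wt and at 45.9 and 7.98 CPM in Scx-homoKO, and Myh8 lies higher in both Scx-homoKO libraries.

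Acta1, the skeletal actin, had the highest level per length of the members, with a mean of 12005 ± 2264 CPM per kb (SD, n = 2) in Scx-Wt and 17331 ± 147 in Scx-homoKO. By library it was at 15981 and 20899 CPM in Scx-Wt and at 26461 and 26781 CPM in Scx-homoKO, without overlap (log2 fold change 0.57, SE 0.30, edgeR adjusted p = 0.376). DESeq2 called it higher (adjusted p = 0.0367), and scaled to muscle genes it was at -0.057 (edgeR adjusted p = 0.859). Actc1, the cardiac actin, was at 149 and 582 CPM in Scx-Wt and at 618 and 273 CPM in Scx-homoKO. Its groups overlapped (0.29, SE 0.55, edgeR adjusted p = 0.847), and per length its mean was 226 ± 189 CPM per kb in Scx-Wt.

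Myl1, the fast light chain, was at 4047 and 8000.0 CPM in Scx-Wt and at 11954 and 12158 CPM in Scx-homoKO. The log2 fold change was 1.03 (SE 0.35, edgeR adjusted p = 0.168). Ckm, the creatine kinase, was at 1876 and 3919 CPM in Scx-Wt and at 4684 and 4598 CPM in Scx-homoKO (0.70, SE 0.35, edgeR adjusted p = 0.346). Neither gene overlapped between groups, and in both the Scx-Wt libraries lay farther apart than the Scx-homoKO libraries. In all, 7 of the 10 members had groups that did not overlap, beside 48.3% of all genes tested.

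Next, the heavy chains were compared with each other within a library, which does not depend on how much muscle RNA the library held. Counts were divided by the exonic length of each gene, and the share of each was taken over the 6 heavy chains. Myh7 made up 15.4% and 3.37% in Scx-Wt and 0.137% and 0.0204% in Scx-homoKO. Myh1 made up 22.2% and 27.0% in Scx-Wt and 42.0% and 46.0% in Scx-homoKO. Both Scx-homoKO libraries therefore had a lower share of the slow chain and a higher share of Myh1 than either Scx-Wt library.

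Myh2 made up 28.9% and 11.1% in Scx-Wt and 8.22% and 7.25% in Scx-homoKO. Myh4 made up 19.1% and 53.1% in Scx-Wt and 38.3% and 38.2% in Scx-homoKO, so that its groups overlapped. Myh8 made up 6.92% and 3.50% in Scx-Wt and 7.01% and 6.13% in Scx-homoKO, and its share overlapped between groups although its level did not. The share of Myh3 was 7.48%, 2.00%, 4.30%, and 2.35% in the same order. With 2 libraries against 2, a two-sided exact permutation test cannot give a p below 0.333, and this value was reached for Myh1, Myh2, and Myh7.

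**Figure D2:**
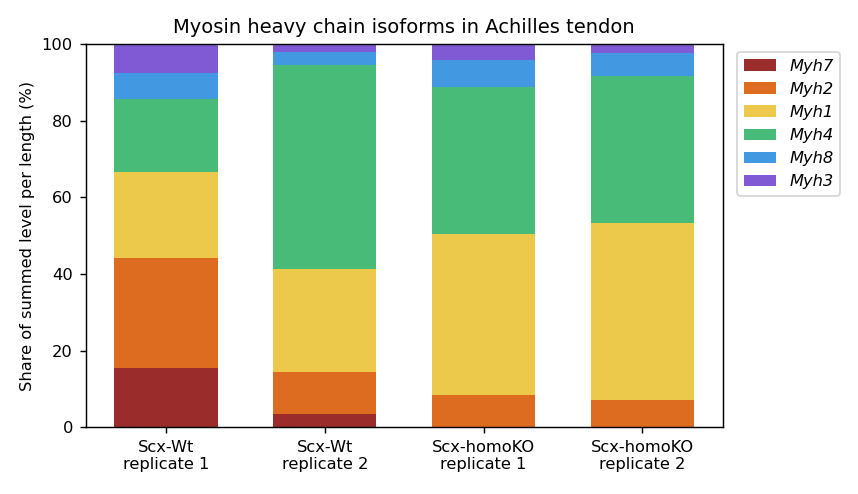
Share in percent of each heavy chain in the summed level per length of the 6 heavy chains, one bar per Achilles tendon library. Myh7 is 15.4% and 3.37% of the Scx-Wt bars and 0.137% and 0.0204% of the Scx-homoKO bars, and Myh1 is the largest part of both Scx-homoKO bars.

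Other genes of slow fibres were then examined. In the slow fibre list, 5 of 10 genes fell, 1 rose, and 4 did not pass the test (median log2 fold change -2.29). The 5 genes, named after their values were seen, were the slow light chains Myl2 and Myl3 and the slow troponins Tnnc1, Tnnt1, and Tnni1. Myl2 was at 1217 and 397 CPM in Scx-Wt and at 23.1 and 8.83 CPM in Scx-homoKO (log2 fold change -5.60, SE 0.58, edgeR adjusted p = 0.000882). Myl3 (-5.25), Tnnc1 (-4.00), Tnnt1 (-2.74), and Tnni1 (-2.41) had edgeR adjusted p-values between 0.000762 and 0.0063. As with Myh7, every Scx-homoKO library was below both Scx-Wt libraries, and Scx-Wt replicate 1 was the highest. The same 5 genes were called lower under all 11 settings run. Csrp3, a Z-disc protein, was the gene that rose (1.07, edgeR adjusted p = 0.020), and it was at 0.34 (edgeR adjusted p = 0.551) when libraries were scaled to muscle genes. Mybpc1, the slow myosin-binding protein and the most abundant gene of the list, was at 0.27 (edgeR adjusted p = 0.603).

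In the fast fibre list, no gene of 10 passed the edgeR test, all 10 had positive log2 fold changes (median 0.77), and adjusted p-values lay between 0.192 and 0.700. At an unadjusted p below 0.05, 5 of the 10 passed. DESeq2 called 1 of the 10. The most abundant was Tnnt3, the fast troponin T, at 4397 and 7872 CPM in Scx-Wt and at 11412 and 10555 CPM in Scx-homoKO. Without a filter on low counts 6 were called. Without Scx-Wt replicate 2, 9 of the 10 were called higher, and without Scx-Wt replicate 1 none was, in fits where the spread again came from the Scx-homoKO pair alone. Whether the slow and fast lists differed from each other was not tested.

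Sarcomere genes of immature muscle and the regulators of myogenesis were examined in the same way. Of 4 tested genes in the list of embryonic and cardiac sarcomere genes, 2 rose and 1 fell. Myl4, the embryonic light chain, was at 64.5 and 64.8 CPM in Scx-Wt and at 322 and 272 CPM in Scx-homoKO (log2 fold change 2.24, SE 0.16, edgeR adjusted p = 0.000112). Tnnt2, the cardiac troponin T that immature skeletal muscle also makes, was at 15.0 and 10.2 CPM in Scx-Wt and at 63.4 and 64.4 CPM in Scx-homoKO (2.40, SE 0.20, edgeR adjusted p = 0.000262). These changes were still called when the libraries were scaled to muscle genes, at 1.58 for Myl4 (edgeR adjusted p = 0.0141) and 1.67 for Tnnt2 (edgeR adjusted p = 0.0166). The gene that fell was Myh6 (-2.72, edgeR adjusted p = 0.0129), described above beside Myh7, and it was not called without Scx-Wt replicate 1.

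Of 9 tested myogenic regulators, 3 rose, none fell, and all 9 had positive log2 fold changes. Myog, the myogenin that drives differentiation of myoblasts, was at 26.3 and 33.4 CPM in Scx-Wt and at 106 and 90.4 CPM in Scx-homoKO (1.75, SE 0.19, edgeR adjusted p = 0.00105). The others that rose, named after their values were seen, were Mymk, a membrane protein of myoblast fusion (1.57, edgeR adjusted p = 0.00565), and Myod1 (1.05, edgeR adjusted p = 0.0435). Myod1 was not called without Scx-Wt replicate 1 or without either Scx-homoKO replicate. Scaled to muscle genes, none of the regulators was called.

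In the list of excitation and neuromuscular genes, 3 of 12 rose and none fell. They were Cacng1 (1.40, edgeR adjusted p = 0.0222), a calcium channel subunit, and the acetylcholine receptor subunits Chrna1 (0.91, edgeR adjusted p = 0.0374) and Chrne (3.05, edgeR adjusted p = 0.0022). Chrna1 was not called when either Scx-Wt replicate or Scx-homoKO replicate 2 was left out. Scaled to muscle genes, Chrne stayed called, while Cacng1 was at 0.82 (edgeR adjusted p = 0.231) and Chrna1 at 0.24 (edgeR adjusted p = 0.707). Of the 12 shared sarcomere genes, the oxygen carrier Mb rose (1.27, edgeR adjusted p = 0.0058), and 11 did not pass, including Tpm2 (0.54), Ttn (0.35), and Actn2 (0.60). Scaled to muscle genes, which include these 12, Mb was at 0.58 (edgeR adjusted p = 0.331) and none of the 12 rose. DESeq2 called 5 of them higher. Of 10 muscle energy genes, Fabp3, a fatty acid carrier of oxidative muscle, fell (-1.14, edgeR adjusted p = 0.0119), and it was not called without Scx-Wt replicate 1. Of 6 genes of the myotendinous junction, 4 rose and none fell by the edgeR test. Xirp1 (1.09, edgeR adjusted p = 0.0104) and Lama2 (0.93, 0.0121) were followed by Xirp2 (0.87, 0.0434) and Itgb1bp2 (0.84, 0.0479). For these 4 genes, scaling to muscle genes and leaving out a library were not examined. Whether they rose more than the other muscle genes was not tested. Col22a1 went the other way without passing (-0.75, edgeR adjusted p = 0.132). It was at 129 and 183 CPM in Scx-Wt and at 74.8 and 105 CPM in Scx-homoKO. Genes named here that are not among the 3 most abundant of their list were named after their values were seen.

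**Figure D3:**
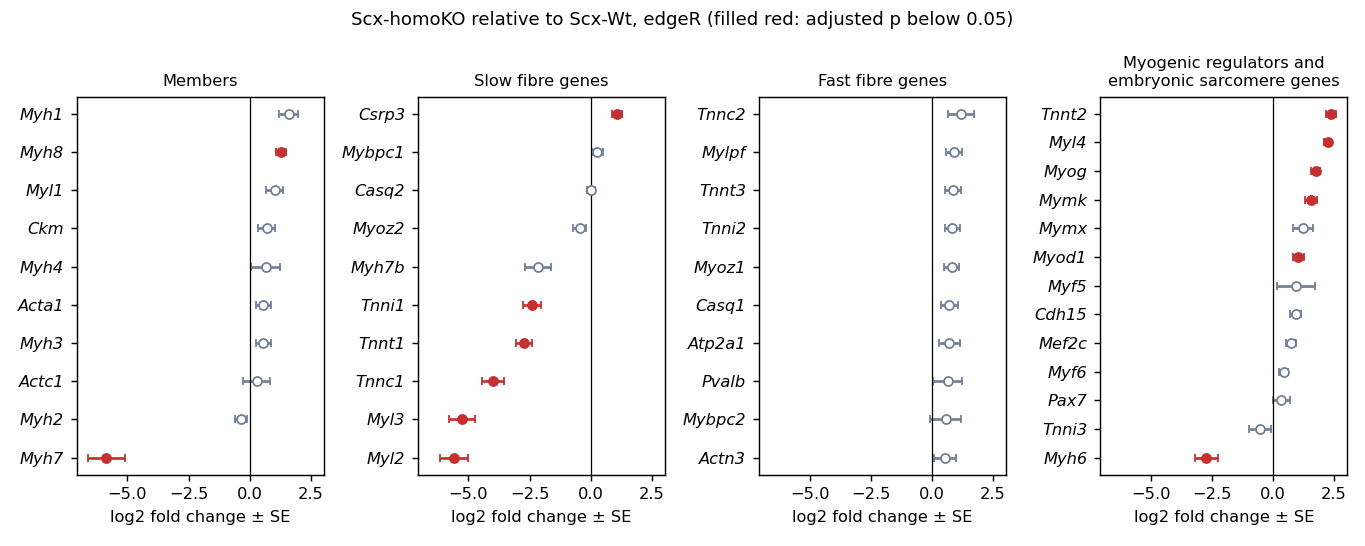
Log2 fold change of Scx-homoKO over Scx-Wt with its SE for the 10 members, the slow and fast fibre genes, and the tested myogenic regulators and embryonic sarcomere genes, with red points for an edgeR adjusted p below 0.05. Myh7 and 5 slow fibre genes lie to the left, while the fast fibre genes lie to the right of 0 and none is red.

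Tendon genes and markers of other tissues moved with the groups as well. The 10 tendon genes took 16.6% and 15.3% of the counts in Scx-Wt and 7.28% and 8.40% in Scx-homoKO. The summed level of 5 cartilage genes was 786 and 714 CPM in Scx-Wt and 44.7 and 27.8 CPM in Scx-homoKO, and Acan, Col2a1, and Matn3 fell by the edgeR test. That of 5 adipocyte genes was 2437 and 1073 CPM in Scx-Wt and 668 and 343 CPM in Scx-homoKO, and that of 6 smooth muscle genes was 998, 497, 368, and 212 CPM in the same order. Of these, Plin1, Fabp4, and Acta2 fell. All of these were named after their values were seen. The 6 Schwann cell genes summed to 713, 698, 6175, and 56.1 CPM, so that the Scx-homoKO libraries differed most from each other. The part that such differences in tissue content had in the values of the members was not tested.

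In the ScxGFP iPSC-derived cells the members were rare. All wells together held 1801 UMIs of the 8 members, of which 1200 were Actc1, 294 Myl1, 166 Acta1, and 112 Myh3. Myh8 had 17 UMIs, Myh7 and Ckm had 5 each, and Myh4 had 2. At least 1 member UMI was found in 314 of the 4594 wells. With all 12 plates in 1 edgeR fit, Myh3, Acta1, and Actc1 had enough counts to be tested, and the other 5 did not. Without the 3 wells described below, only 1 member, Actc1, had enough, so that Myh3 and Acta1 were tested only through those wells.

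None of the 3 tested members was called between successive time points or between T9 and T0. Over all 13372 genes tested, edgeR called 33.2% between T3 and T0, 4.24% between T6 and T3, 1.62% between T9 and T6, and 45.2% between T9 and T0. At an unadjusted p below 0.05, Actc1 passed for T3 against T0 and T6 against T3, and Myh3 for T6 against T3. DESeq2 called Actc1 lower at T3 than at T0 (adjusted p = 1.44e-09) and higher at T6 than at T3 (adjusted p = 2.16e-08). For T6 against T3, edgeR gave Actc1 an adjusted p of 0.209. At T6, 260 of the 293 Actc1 UMIs were in 1 well of plate 3, and the other T6 plates had none. Of the Myh3 UMIs of that plate, 35 of 41 were in the same well. The DESeq2 p for T6 was therefore not taken as stronger evidence.

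Actc1 was present before treatment and was not detected at T3. It had 146, 201, and 37 UMIs on the T0 plates, which is 29.3 ± 18.4 CPM (SD, n = 3 plates). On the T3 plates it had 0 of 7505207 UMIs, where 3 UMIs would have been 0.400 CPM. The level at T0, pooled over its plates (30.3 CPM), was 75.7 times that limit, which reflects only the error of counting. Single T0 plates ranged from 9.96 to 46.5 CPM. The edgeR fit of 12 plates gave an adjusted p of 0.0706 for T3 against T0. It was 0.000162 with the 6 plates of T0 and T3 alone, and 0.00884 without the 3 wells described below. All 3 T0 plates were above all 3 T3 plates.

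At T6 Actc1 had 0, 0, and 293 UMIs, and at T9 it had 274, 0, and 249. Of these 6 plates 3 therefore held none, and the other 3 held between 249 and 293. Myl1 had 117 UMIs on T6 plate 3, 176 on T9 plate 1, and 1 on T0 plate 1, and none on the remaining plates. Myh3 followed the plates of Actc1, with 41 UMIs on T6 plate 3 and 29 each on T9 plates 1 and 3, after 6, 5, and 2 at T0 and none at T3.

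These UMIs came mostly from 3 wells. One well of T6 plate 3 held 432 of the 494 member UMIs of its plate, one of T9 plate 1 held 474 of 552, and one of T9 plate 3 held 251 of 297. Together they held 1157 UMIs, or 64.2% of all member UMIs, and the next highest well of any plate held 33. At T6 and T9, 85.7% of the Actc1 UMIs were in these wells. They are 3 of 2296 wells (0.131%), and a well in this sense can hold 1 cell or more. They held 12341, 16072, and 8149 UMIs in all, where the median cell of their plates held 10097, 9146, and 7238.

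The 3 wells also held other genes of skeletal muscle, which the choice of the wells did not use. Of 66 striated muscle genes outside the members, 36 were detected in the T6 well and 33 and 18 in the T9 wells, where the other wells of these plates had at most 10, 8, and 7. Myog had 20 UMIs in the T6 well and 31 and 4 in the T9 wells, and Myod1 had 5, 33, and 2. Tnnt2 had 51, 96, and 17 UMIs and the giant sarcomere protein gene Ttn had 87, 59, and 15. Pax7, the marker of muscle stem cells, and Myf6, a late myogenic factor, had none in any of the 3. Scx had 1, 13, and 0 UMIs, or 81.0, 809, and 0 CPM. The other wells of the same plates were at 477, 209, and 160 CPM. The first T9 well was thus above its plate for Scx, and the other wells were below theirs.

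Within these wells the members were not alike. Actc1 was the most abundant, with 260, 227, and 212 UMIs. Myl1 had 105 and 157 UMIs in the T6 well and the first T9 well and none in the other T9 well. Acta1 had 19, 63, and 14 UMIs, and Myh3 had 35, 26, and 24. Myh8 had 13, 1, and 0, and Myh4 and Ckm had none in any of them. Myh7 had a single UMI, in the well that lacked Myl1. The heavy chain detected in all 3 was thus the embryonic one, and the cardiac actin exceeded the skeletal actin in each.

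**Figure D4:**
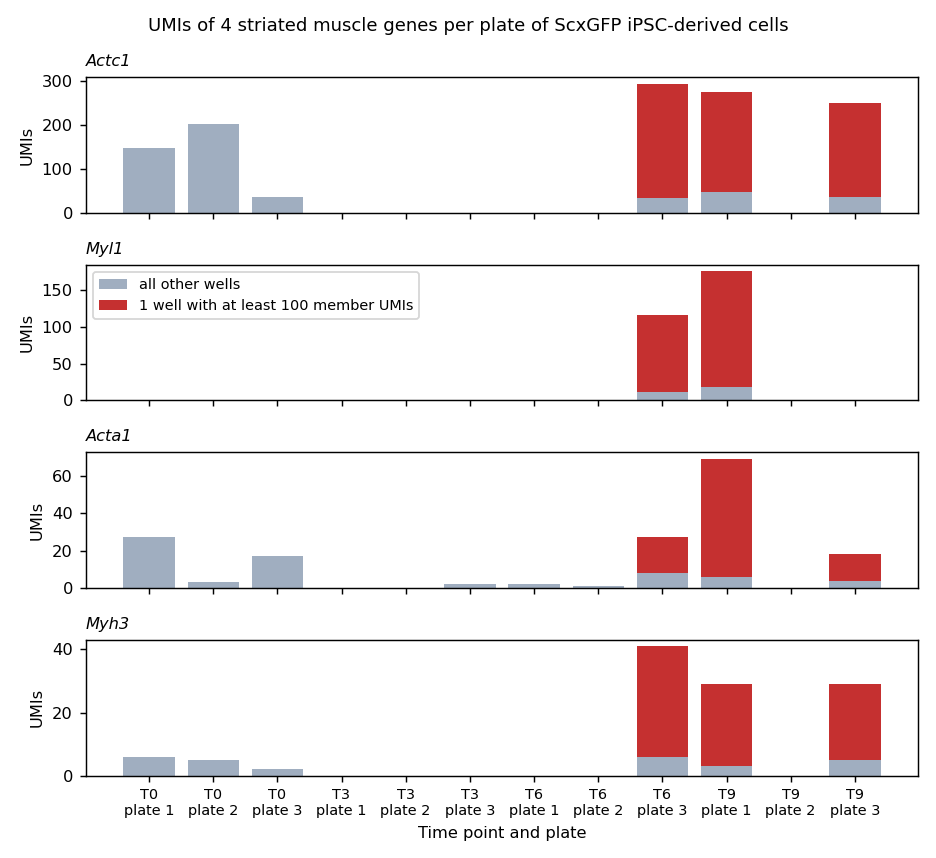
UMIs of Actc1, Myl1, Acta1, and Myh3 on each of the 12 plates, split into those of 1 well with at least 100 member UMIs (red) and those of all other wells (gray). Red makes up most of each tall bar on T6 plate 3 and T9 plates 1 and 3, and the T3 plates are at 0 except for 2 Acta1 UMIs on plate 3.

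Other wells of the same 3 plates held few UMIs each. On T6 plate 3 Actc1 had 33 UMIs in 31 other wells, at most 2 in a well, and on T9 plates 1 and 3 it had 47 in 45 wells and 37 in 29 wells. For every 100 Actc1 UMIs in the high well there were 12.7, 20.7, and 17.5 in the rest of the plate, and for Myl1 there were 11.4 and 12.1 on the 2 plates that had it. Plates of T6 and T9 without a high well had no Actc1 UMI. The wells of a plate were pooled after reverse transcription, and what part RNA of the high wells had in the single UMIs elsewhere was not tested. The share of cells with a member UMI was 5.31 ± 8.29% at T6 and 9.41 ± 9.03% at T9 (SD, n = 3 plates), and 5.24 ± 8.17% and 9.26 ± 8.93% without the 3 wells.

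At T0 the members were spread over more cells. The share of cells with a member UMI was 12.3 ± 5.89%, and Actc1 was found in 50 of 382, 53 of 383, and 13 of 382 cells. With each cell thinned to 3000 UMIs, which left out 76 cells of T0, 113 of T3, 68 of T6, and 36 of T9, Actc1 was found in 4.11% of the T0 cells and 0% of the T3 cells. The median depth was 10175 UMIs per cell at T0 and 5703 at T3. At T3, 0 of 1151 cells held an Actc1 UMI. By the limit of 3 counts this allows a share of cells with a UMI of up to 0.261% at that depth, and it sets no limit on cells that express the gene.

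Cells that should lack the sarcomeric genes were set beside these shares. At T0, 118 cells held UMIs of at least 3 of 8 pluripotency genes, with a median of 16142.5 UMIs, and 15.3% of them held an Actc1 UMI (exact Clopper-Pearson 95% interval 9.30 to 23.0%). In the other 1029 cells, with a median of 9763 UMIs, the share was 9.52% (7.80 to 11.5%). The 118 cells held more UMIs per cell, and the shares were not compared at equal depth. Whether Actc1 in the other T0 cells exceeded a background therefore cannot be read from these shares. At least 3 Actc1 UMIs were found in 1 of the 118 cells and in 33 of the 1029.

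The T0 cells with at least 3 Actc1 UMIs numbered 11, 19, and 4 on the 3 plates and held 103, 166, and 28 Actc1 UMIs. Apart from 9 UMIs on the first plate, no other member was detected in them. Their level of Acta2, the smooth muscle actin, was 3229, 2274, and 1498 CPM, against 226, 221, and 158 CPM in cells of the same plates without an Actc1 UMI. Those of Tagln, another smooth muscle gene, were 1217, 606, and 364 CPM against 118, 39.3, and 71.4. Cells with 1 or 2 Actc1 UMIs numbered 39, 34, and 9. They were at 632, 188, and 316 CPM for Acta2 and at 234, 75.3, and 36.1 CPM for Tagln. For Acta2 on plate 2 and Tagln on plate 3, they were below the cells without an Actc1 UMI. These genes and the size of the cell group were chosen after the values were seen, and the comparison is a description without a test.

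Among the genes tested on the plates, those whose levels most resembled a member over the 12 plates included sarcomere genes. For Myh3, the Pearson correlation of log2(CPM + 1) was highest with Tnnt2 (0.92), Actc1 (0.89), Acta1 (0.85), Nkd1 (0.84), and Ttn (0.83). For Actc1 it was highest with Myh3, Ttn (0.88), Plbd2 (0.86), Tnni1 (0.86), and Acta1 (0.85), and for Acta1 with Tnnt2 (0.85), Actc1, Myh3, Eda2r (0.80), and Nkd1 (0.78). For Myl1 it was highest with Tnnt2 (0.86), Myh3 (0.72), Minos1 (0.71), Gm11483 (0.71), and Osbp2 (0.70). The 12 plates share these 3 wells among their points, and no p was computed. Tnnt2 was called higher at T9 than at T0 (log2 fold change 3.65, SE 1.25, edgeR adjusted p = 0.0278), and without the 3 wells it had too few counts to be tested.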

How the data were processed

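The tables of unnormalized counts deposited by the authors were used. For the Achilles tendon, reads of a directional poly(A) library were aligned to GRCm38 with HISAT2 2.0.4 and counted per gene with featureCounts 1.5.0. For the single cells, CEL-Seq2 reads were trimmed, aligned to GRCm38 with HISAT2 2.2.1, and counted per UMI with featureCounts and UMI-tools 1.0.1, so that copies made by PCR were counted once. The annotation release, the strand setting, and the treatment of reads with several matches are not given in the sources used here. UMI counts were summed per plate over wells with at least 200 genes. The 3 entries without an Ensembl identifier (0.0642% of UMIs) were left out. Doublets were excluded by the sort and not called again.

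Both tables were fitted with edgeR 4.0.16 (filterByExpr, TMM, quasi-likelihood test, Benjamini-Hochberg over all genes tested, call at 0.05) in R 4.3.3, without a replicate block, with DESeq2 1.42.0 as the other tool. The fit was tested on simulated data. Shares and exact tests used Python 3.11.15 and scipy 1.17.1. Lengths are exonic lengths of GENCODE vM21, and promoters are RefSeq windows, with all 10 members matched. Replicate libraries were not identical: the chi-square per gene between replicates was 34.1 and 20.7 in the tendon and 2.98 to 50.7 among plates. Nothing states that the plates of a time point came from separate cultures, so p-values measure only the spread between plates, which may be technical. Binomial intervals, and the limit of 3 counts used where none was seen, reflect only the error of counting.

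The members and gene lists were chosen with earlier results of these data known. The text names the members, Scx, and at most the 3 most abundant genes of each list, and others where it says so. For likeness, the 5 most correlated genes of each member with at least 100 UMIs are named. The lists held 10 fast, 10 slow, 12 shared sarcomere, 12 excitation and neuromuscular, 10 energy, 8 embryonic and cardiac, and 10 regulatory genes of striated muscle, 6 genes of the myotendinous junction, and markers of 10 other cell types. In the tendon, edgeR called 0 blood, 0 macrophage, 0 epidermal, 0 Schwann cell, 1 endothelial (Kdr), 1 pluripotency (Esrrb), and 6 tendon genes. Of these tendon genes, 5 fell and 1 rose in Scx-homoKO. Alternatives were DESeq2, size factors, no filter, TMM without muscle genes, scaling to muscle genes, the replicate block, the library split and the compared plates alone, 1000 genes per well, 2 UMIs, thinning, and leaving out each replicate. The library split grouped the plates by their reads that fell on no annotated feature. Leaving out the 3 wells was added after the data were seen.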

Additional observations from a re-analysis of the deposited data

How the results depend on the processing

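In the tendon, 2 of 10 members were called. The count was 5 without a filter on low counts, 4 with the replicate block, and between 2 and 8 when a replicate was left out (5 without Scx-Wt replicate 1, 8 without Scx-Wt replicate 2). In those fits an arm of 1 library was assumed to vary like the other group. With DESeq2, which added Acta1, and with scaling to muscle genes it was 3. Myh7 was called lower each time. How the tendon fits without a filter and with scaling to muscle genes estimated the spread between replicates was not examined. On the plates, where none was called, the count for T3 against T0 was 1 with DESeq2, with the 6 plates alone, and without the 3 wells, and 3 without a filter. For T6 against T3 it was 1 with DESeq2 and 4 without a filter, for T9 against T6 it was 2 without a filter, and for T9 against T0 it was 4 without a filter, 1 with the library split as a covariate, and between 0 and 2 when a replicate was left out (2 without T9 plate 2 and 1 without T9 plate 3). The labels do not say that a number marks a shared litter or batch. Deviations of same-numbered libraries correlated at 0.066 in the tendon and between -0.55 and 0.51 among plates. A partner of the same number correlated best in 15 of 36 searches among plates, and the replicate block left the counts of members called on the plates at 0. Over all genes, 560 were called in the tendon, 1415 without a filter, and 1108 with the block, and scaling to muscle genes called 61 higher and 600 lower in place of 258 and 302. For T6 against T3, 567 genes were called, and 264 with the 6 plates alone, 874 with DESeq2, 1010 without a filter, 1483 with the library split, and 291 to 890 with a plate left out. For T9 against T6 these counts were 217, 45, 548, 684, 813, and 35 to 852, and 113 with the block.

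Signs that turned were all of fold changes that had not passed. Scaled to muscle genes, Myh3 was at -0.22, Acta1 at -0.057, and Actc1 at -0.15. Without Scx-Wt replicate 1, Myh4 was at -0.095 and Actc1 at -0.40, against 2.38 and 1.67 without Scx-Wt replicate 2, and Actc1 was at -0.38 without Scx-homoKO replicate 1. For T9 against T0, Acta1 was at -0.043 without T9 plate 1 and 2.30 without T9 plate 2, and Actc1 at -1.32 without the 3 wells. Without T6 plate 3, Actc1 and Myh3 had no count left at T6 or T3, and no value was given. Not divided by length, the share of Myh4 in Scx-homoKO was 34.7%, and that of Myh8 was 8.80% in Scx-Wt and 11.7% in Scx-homoKO. The share of cells with a member UMI at T0 was 4.86% after thinning and 4.36% with at least 2 UMIs, and at T3 it was 0% with at least 2 UMIs. On the plates, 5 of 8 members were below the filter on low counts.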
